A study of Mus musculus with 2 samples.

Results

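Neutrophil granule proteins are the enzymes and antimicrobial proteins that developing neutrophils make and store, and 10 of their genes were followed here in a mouse myeloid cell line with and without an active form of the transcription factor MEF2C. The genes were chosen by name: Mpo, Elane, Prtn3 and Ctsg of the azurophil granules, and Camp, Ltf, Lcn2, Ngp, Fcnb and Pglyrp1 of the granules formed later. Every non-control probe carrying one of these names, or the older name Ela2 for Elane, was used, which gave 11 probes (2 for Ltf, 1 for each other gene) among the 41174 probes of the array. All 10 genes were measured on both arrays, as were 16569 genes in all.

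M/E cells are murine bone marrow cells immortalised by MLL/ENL, a leukaemia fusion protein, and they carry the genotype Mef2c del/-, so that the cells of both groups lack functional endogenous Mef2c. The control culture was infected with the empty vector MYs-iPAC. The other was infected with MYs-pMef2cASR, which encodes an HDAC-binding mutant of Mef2c, described as constitutively active and called MEF2C-ASR here. Both were selected with puromycin, grown in medium with IL6, GM-CSF and IL3 (10 ng/ml each) plus SCF at 100 ng/ml, and harvested 6, 24 and 48 hours after seeding in fresh medium, and the RNA of the 3 harvests was pooled. Whether the line is 1 clone and which promoter drives the inserted gene are not given in the sources used here.

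Each group was 1 pooled RNA on 1 array, so no difference below has a replicate check and no test was made. The values compare these arrays, not the conditions beyond them, and their precision is limited by the small number of arrays. Of 43379 non-control spots, the share well above background was 60.1% (control) and 67.5% (MEF2C-ASR), and no spot was saturated. Both arrays were on the same slide. The cells are labelled as bone marrow cells, and all 10 granule genes were well above background on both arrays, as were 5 of 16 lymphoid markers. A level is the log2 of the scanner's processed signal minus the array's own 75th percentile, and a difference is the MEF2C-ASR level minus the control level. A gene is called higher or lower when it differs by at least 2-fold, which is 1 on the log2 scale, with all its measured probes on the same side. By that rule 289 of the 16569 genes (1.74%) were higher and 316 (1.91%) were lower with MEF2C-ASR. The median over all genes was -0.03 and the 5th and 95th percentiles were -0.59 and 0.56. The Mef2c probe that was above background had a signal of 795 (control) and 1969 (MEF2C-ASR), a difference of 1.34, while the other Mef2c probe was not well above background on either. No source used here names the deleted part of the gene, so whether this probe reads the altered alleles was not tested. The related genes Mef2a, Mef2b and Mef2d differed by 0.31, -0.07 and -0.04, and Hprt, a housekeeping gene the study used for normalisation of its PCR, differed by 0.02.

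Neutrophils fill their granules in order as they mature. Azurophil, or primary, granules form in promyelocytes and hold myeloperoxidase and the serine proteases, while specific and gelatinase granules form later, in myelocytes and metamyelocytes, and hold lactoferrin, cathelicidin, lipocalin and gelatinase. Genes of the azurophil proteins are therefore known as marks of early granulocytic cells and those of the later proteins as marks of further maturation. Factors of the PU.1, C/EBP, RUNX and MYB families are known to act at these genes in myeloid cells.

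All 10 genes had a higher level on the MEF2C-ASR array than on the control array. Among all measured genes, 39.5% did so with all their measured probes above 0. Without that condition on probes the share is larger, since 41.2% of all genes had a larger difference than Ctsg. Camp at 2.72-fold and Mpo at 2.15-fold passed the 2-fold rule, 2 of 10 members against 1.74% of all genes, and Ctsg at 1.01-fold lay closest to no difference. The median over the 4 azurophil genes was 0.46 (1.37-fold) and that over the 6 later genes was 0.69 (1.62-fold). The differences were mostly modest: at 1.5-fold, a line drawn after the values were seen, 4 of 10 members were higher (Camp, Mpo, Ltf and Pglyrp1) against 4.46% of all genes. In bulk RNA such as this, more cells of a type and more RNA per cell cannot be told apart.

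The promoters of the genes with the largest and the smallest difference in each group are shown, to set the DNA in front of a gene that differed beside that of one that differed little. They are the 250 bases before the annotated start, 5′ to 3′ on the gene's strand, from RefSeq on the GRCm38.p6 build, which listed all 10 genes. Capitals mark matches to 4 short motifs searched on both strands: GAGGAA for PU.1, TTGCNNAA for C/EBP, TGTGGT for RUNX and TAACNG for MYB, where N is any base. No marked matches overlap in the promoters printed.
Mpo (chr11:87793534-87793783, plus strand): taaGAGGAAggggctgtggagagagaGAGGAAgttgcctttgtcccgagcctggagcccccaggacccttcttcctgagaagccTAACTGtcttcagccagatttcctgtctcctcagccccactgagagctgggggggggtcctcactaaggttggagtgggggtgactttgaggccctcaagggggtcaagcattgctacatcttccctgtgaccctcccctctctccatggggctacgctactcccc
Ctsg (chr14:56102575-56102824, minus strand): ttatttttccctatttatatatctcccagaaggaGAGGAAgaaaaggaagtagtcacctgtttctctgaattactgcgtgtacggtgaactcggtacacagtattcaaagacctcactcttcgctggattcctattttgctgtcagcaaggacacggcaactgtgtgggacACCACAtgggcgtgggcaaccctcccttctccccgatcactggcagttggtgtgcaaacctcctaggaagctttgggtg
Camp (chr9:109849457-109849706, minus strand): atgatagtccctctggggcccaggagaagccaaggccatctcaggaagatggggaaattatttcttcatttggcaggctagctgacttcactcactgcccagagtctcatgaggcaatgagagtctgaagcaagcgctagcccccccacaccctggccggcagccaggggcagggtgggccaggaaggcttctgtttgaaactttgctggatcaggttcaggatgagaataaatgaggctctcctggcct
Lcn2 (chr2:32387740-32387989, minus strand): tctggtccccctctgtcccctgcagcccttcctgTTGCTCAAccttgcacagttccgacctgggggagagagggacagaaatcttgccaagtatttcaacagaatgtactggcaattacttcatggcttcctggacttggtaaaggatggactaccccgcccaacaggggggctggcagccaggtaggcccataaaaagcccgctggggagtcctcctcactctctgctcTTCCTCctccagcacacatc

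The PU.1 letters occurred in 7 of the 10 members' windows (all 4 azurophil genes, and Ltf, Lcn2 and Pglyrp1), against 23.3% of the 32851 RefSeq promoters of the same length. In Mpo they occurred at 247 to 242 and at 224 to 219 bases before the start, with a MYB match at 166 to 161. In Ctsg the PU.1 letters lay at 216 to 211 bases and a RUNX match at 79 to 74 bases before the start. The C/EBP letters occurred in 4 of 10 windows, all of later genes (Ltf, Lcn2, Ngp and Fcnb), against 9.56% of all promoters. In Lcn2 the C/EBP match lay at 216 to 209 bases and the PU.1 match at 20 to 15 bases before the start. RUNX letters were found in 1 member's window (Ctsg; 14.0% of all promoters) and MYB letters in 2 (Mpo and Elane; 19.8%). A MEF2 motif, whose letters are not given here, was searched as well. It was in none of the 10 windows and in 2.92% of all promoters, which holds only for the pattern used. Camp, with the largest difference, held none of the motifs searched, and Mpo and Ctsg, far apart in their difference, both held PU.1 letters. These are matches of letters, not binding sites, and binding was not measured.

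The first of the azurophil genes, Mpo, encodes myeloperoxidase, which makes hypochlorous acid from hydrogen peroxide and chloride. Mpo (gene ID 17523, GRCm38.p6 chr11:87793784-87804412) had a processed signal of 68289 in the control and 143027 with MEF2C-ASR. The difference was 1.10 with a software error of 0.20, or 2.15-fold, and 1.41% of all measured genes had a larger one. With each array scaled to its spike-in controls, RNAs added in known amounts, the difference was 0.94, just under 2-fold. The software error is the one that the scanner's extraction program assigns to each spot, which is close to 10% of the signal for every member except Fcnb. It covers the spot and not the culture.

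The serine proteases lay below Mpo in their difference. Elane, the neutrophil elastase gene (ID 50701, chr10:79886312-79888216), had signals of 31190 and 40624, a difference of 0.42 ± 0.20 (software error). Prtn3, the proteinase 3 gene (ID 19152, chr10:79879667-79883174), had signals of 11119 and 15318, a difference of 0.50 ± 0.20. Elane and Prtn3 lie 3.14 kb apart and both were about 1.4-fold higher (1.34-fold and 1.41-fold), inside the 5th to 95th percentile range of all genes. Each of these differences exceeded its software error, and neither reached 2-fold.

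Ctsg, the cathepsin G gene (ID 13035, chr14:56099885-56102574), had signals of 207062 and 204890, a difference of 0.02 ± 0.20. It was the member with the smallest difference, and 41.2% of all genes had a larger one. Its signals stood at 36.1% and 35.7% of the saturation value, and those of Mpo at 11.9% and 24.9%, so neither was at the scanner's ceiling. A spike-in control of similar brightness, with signals of 193250 and 197595, differed by 0.07. Mpo, Elane, Ctsg and Ngp were read from the scanner's low-gain scan on both arrays.

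Among the later granule genes, Camp encodes cathelicidin, the precursor of an antimicrobial peptide. Camp (ID 12796, chr9:109847377-109849456) had signals of 2460 in the control and 6528 with MEF2C-ASR. The difference was 1.44 ± 0.20 (software error), or 2.72-fold, and 0.706% of all genes had a larger one. It was the largest difference among the 10 members.

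Ltf encodes lactoferrin, the iron-binding protein of specific granules (ID 17002, chr9:111019292-111042766), and was read by 2 probes. The signals were 2546 and 4426 at one probe and 4406 and 7992 at the other. The probes gave differences of 0.83 and 0.89, which are 0.06 apart, and the gene's mean difference was 0.86, or 1.82-fold. Pglyrp1, a peptidoglycan recognition protein that binds bacterial cell walls (ID 21946, chr7:18884690-18890438), had signals of 6336 and 10851, a difference of 0.81 ± 0.20, or 1.76-fold. Ltf and Pglyrp1 thus lay above the 95th percentile of all genes and below the 2-fold line.

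Ngp, a cathelicidin-related neutrophil granule protein (ID 18054, chr9:110419808-110423012), had signals of 21899 and 30401, a difference of 0.51 ± 0.20. Lcn2 encodes lipocalin 2, which binds bacterial iron carriers (ID 16819, chr2:32384637-32387739), and had signals of 7613 and 9573, a difference of 0.37 ± 0.20. Lcn2 had the smallest difference among the later genes at 1.29-fold. Fcnb, the ficolin B gene of the lectin complement pathway (ID 14134, chr2:28076479-28084910), was dim, with signals of 73.1 and 106. Its difference of 0.57 carried the largest software error of the members, 0.26, and fell to 0.31 with normexp background correction.

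**Figure D1:**
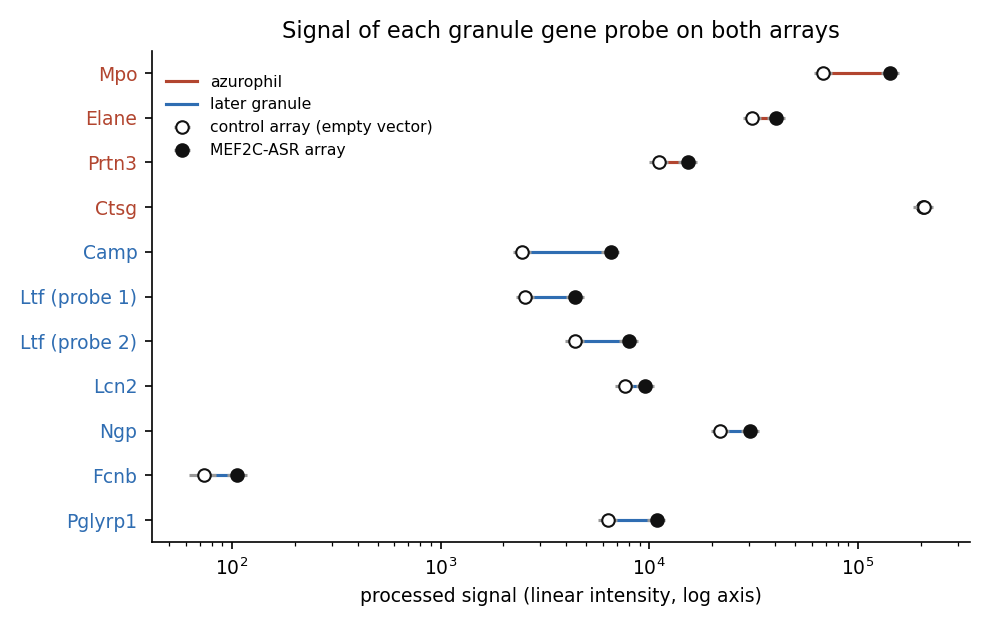
Processed signal (linear intensity on a log axis) of the 11 probes of the granule genes on the control array (open circles) and the MEF2C-ASR array (filled circles), with grey bars for the scanner software's signal error and coloured lines joining the arrays. Mpo runs from 68289 to 143027 and Camp from 2460 to 6528, while the circles of Ctsg lie on each other at 207062 and 204890.

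Each array held 245 probes printed 10 times, which show how far identical spots scatter. For the 144 of these that were well above background in every spot, the SD of a difference between single spots on the 2 arrays was 0.13. With these probes split by brightness into 3 equal sets, it was 0.21 in the dim set, 0.07 in the middle set and 0.06 in the bright set. Fcnb falls in the signal range of the dim set (52.7 to 315 on the control array) and the other 9 members in the middle or bright range, where signals of 327 or more lie. The differences of Mpo and Camp were many times this spotting scatter, that of Ctsg was within it, and Fcnb's was 0.57 against 0.21.

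Ordered by difference, the members ran Camp, Mpo, Ltf, Pglyrp1, Fcnb, Ngp, Prtn3, Elane, Lcn2 and Ctsg. The gap from Camp to Mpo was 0.34 and that from Lcn2 to Ctsg was 0.35, both above the software error of such a gap, 0.29. No other gap between neighbours in this order exceeded its software error, so the order of the 8 genes from Mpo to Lcn2 was not resolved step by step. Azurophil and later genes were interleaved in it.

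**Figure D2:**
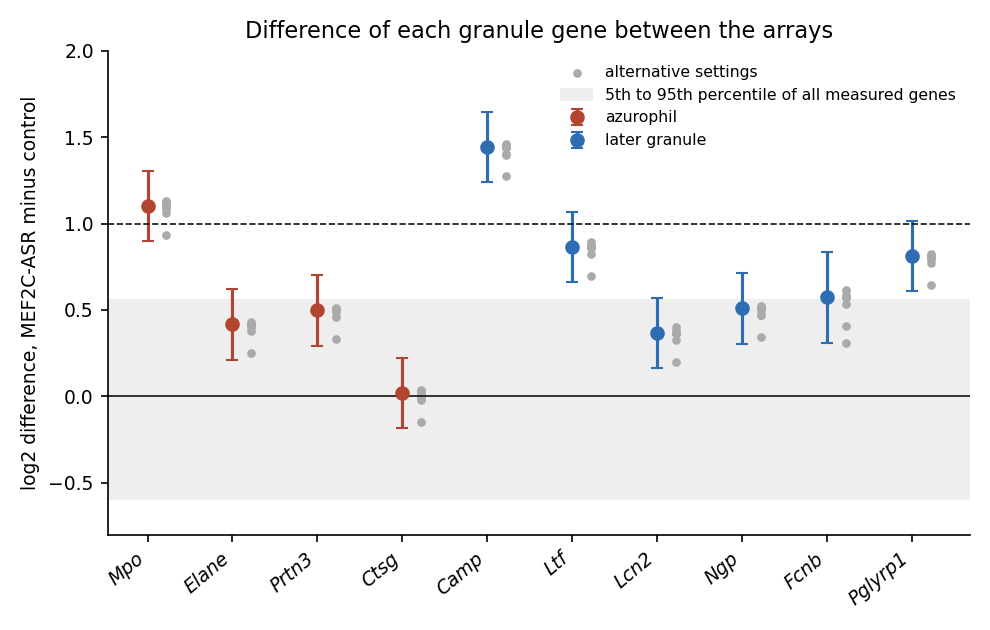
Difference of each granule gene on the log2 scale (MEF2C-ASR minus control), with bars for the scanner software's error, grey dots for the values under alternative settings and a grey band for the 5th to 95th percentile of all measured genes (-0.59 to 0.56). Camp at 1.44 and Mpo at 1.10 lie above the 2-fold line and Ctsg at 0.02 lies at 0.

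The later genes had the higher median difference, by 0.24 on the log2 scale. This gap rests on single genes: it was 0.19 without Ctsg, 0.12 without Camp and 0.28 without Mpo. Of the 6 later genes, 5 had a larger difference than the azurophil median and 5 had a smaller difference than Mpo. The azurophil range, 0.02 to 1.10, and the later range, 0.37 to 1.44, overlapped. Each group had 1 gene past 2-fold. Genes are not replicates of a condition, so this comparison carries no test.

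Other granule proteins were listed by name and read the same way. Of 15 measured other azurophil granule genes, 1 was higher and 1 was lower, against 1.74% and 1.91% of all genes. The median was 0.17. With spike-in scaling the median was 0.0046 and none was higher, and 2 were higher with normexp correction or without spots with a background-outlier flag. Lyz1, a lysozyme gene, was higher, with signals of 24219 and 49600 and a difference of 1.07, which was 0.90 with spike-in scaling. Lyz1 and its near copy Lyz2 (0.97) can share probe signal and are uncertain. Clec11a was lower, with signals of 2129 and 215 and a difference of -3.27, and it is better known as a secreted growth factor than as a granule protein. Prss57, a further serine protease of azurophil granules, differed by 0.61. That value and the one for Lyz2 fall outside the rule for naming genes and were picked after they were seen.

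Of 23 measured other genes of specific and gelatinase granules or their membranes, 9 were higher (39.1%, against 1.74% of all genes), none was lower and the median was 0.65. The count was 7 with spike-in scaling or normexp correction and 10 with all probes kept. With spike-in scaling the median was 0.48. Fpr1, the receptor for formylated bacterial peptides, had signals of 305 and 2055 and a difference of 2.79. Mmp8, the neutrophil collagenase, had signals of 1692 and 8860 and a difference of 2.42. Chil1 (1.73), Olfm4 (1.64), Slc11a1 (1.52), a metal transporter, and Retnlg (1.49) were also among the 9. Mmp25 was not well above background on the control array and was at least 3.81-fold higher on the other, taking the lowest signal well above background as the control's bound. Not all genes of the list did this: Cd177, Slpi and Cyba differed by 0.02, 0.01 and 0.04, values near 0 that were picked after they were seen. Lists here can share genes, and Mmp8, Mmp9, Retnlg, Cd177 and Itgam also stand among the neutrophil maturation markers.

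Genes for processing, packaging and inhibiting the granule proteases differed little. None of 25 measured genes passed 2-fold in either direction, and the median was 0.07. Over all genes 1.74% were higher and 1.91% were lower, so the count is near those shares in a list of this size. Srgn, the serglycin core protein on which granule proteases are packed, had signals of 128834 and 132257 and a difference of 0.07. Serpinb1a, an inhibitor of neutrophil elastase, proteinase 3 and cathepsin G, differed by 0.21. Slpi, a secreted inhibitor of elastase, differed by 0.01. With spike-in scaling the median of this list was -0.09, and the direction of Srgn and Slpi turned with it.

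Of 23 measured transcription factors known in granulopoiesis, 2 were higher and 1 was lower, against 1.74% and 1.91% of all genes. The median was 0.25. Mzf1, a myeloid zinc finger factor, had signals of 5283 and 455 and a difference of -3.50. Egr1, an immediate early factor that is also linked to macrophage fate, had signals of 55.3 and 246, and Bcl6, a repressor expressed in neutrophils, had signals of 142 and 630. Both differed by 2.19. Egr1 was 1.36 with normexp correction, and Bcl6 had no value there or where spots with a background-outlier flag were left out. Among the factors whose motifs were searched above, Spi1, which encodes PU.1, differed by 0.39, Cebpa by 0.15, Cebpb by 0.25, Cebpd by 0.36, Runx1 by 0.38, its partner Cbfb by 0.04 and Myb by -0.05. These are the list's measured genes of those families, taken for that and not by the rule for naming genes. With spike-in scaling the list's median was 0.08 and Cebpa was -0.02. Cebpe was not analysed here, since no probe was matched to it.

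**Figure D3:**
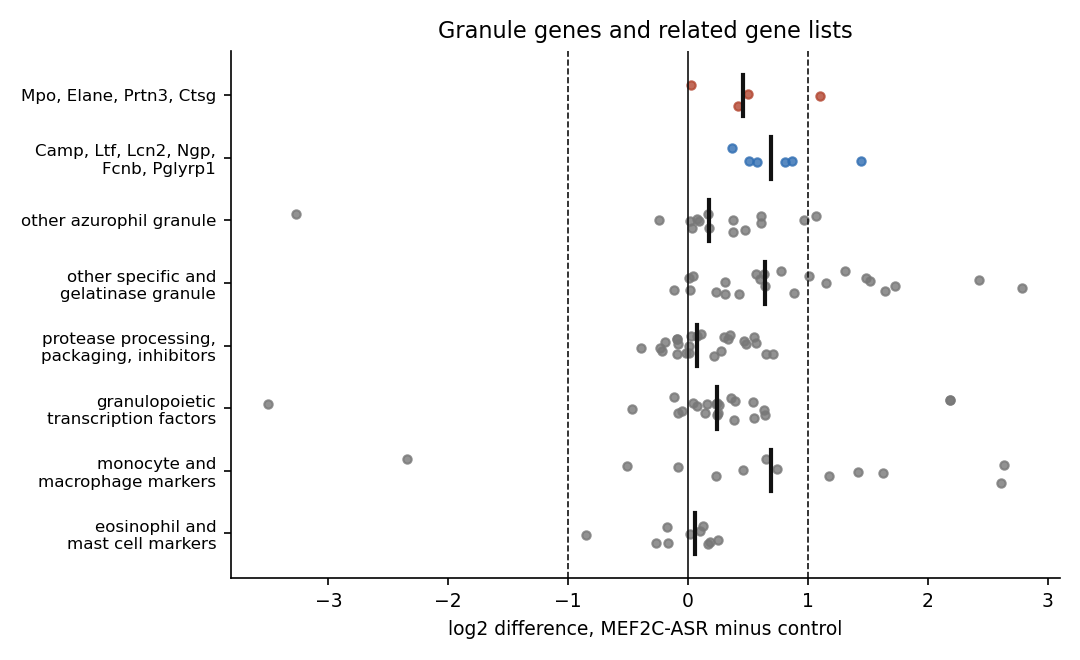
Difference on the log2 scale (MEF2C-ASR minus control) of each measured gene (dots) in the azurophil and later granule groups and in related gene lists, with the median of each list marked. The median of the other specific and gelatinase granule genes is 0.65, that of the other azurophil genes 0.17 and that of processing, packaging and inhibitor genes 0.07.

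Markers of another myeloid fate were also higher on balance. Of 18 monocyte and macrophage markers with a probe, 12 were measured. Of these, 5 were higher and 1 was lower, against 1.74% and 1.91% of all genes. The median was 0.69, or 0.35 with all probes kept whatever their background. Msr1, a scavenger receptor (2.64), Ctss, cathepsin S (2.61), Csf1r, the receptor for the macrophage growth factor (1.62), Ccr2 (1.42) and Mpeg1 (1.17) were higher and F13a1 was lower (-2.35). Msr1 was dim in the control, with signals of 48.5 and 295. Its difference was 1.67 with normexp correction, and it had no value with the filter at the 25th percentile of level. Fcgr1 (-0.51) and C1qb (-0.08) also lay below 0 and are named for that, not by the rule for naming genes. Of the 18, the number well above background was 12 in the control and 15 with MEF2C-ASR. This rise is not particular to these markers. Over all spots the share was 60.1% in the control and 67.5% with MEF2C-ASR, and the number of lymphoid markers above background was 5 and 10. The summed signal of the 12 measured genes was 13996 in the control and 19590 with MEF2C-ASR, of which F13a1, the gene that was lower, made up 5600 and 1075. Mrc1, Ms4a7 and C1qc were not well above background on either array. Cx3cr1, C1qa and Vcan were above it with MEF2C-ASR but not in the control. Vcan was at least 1.95-fold higher by its bound, while the bound of C1qa was 1.00-fold and Cx3cr1 gave no bound. The part of such cells in the granule gene differences was not tested.

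Markers of eosinophil and mast cell granules had no gene past 2-fold among those measured. Over all genes 1.74% were higher and 1.91% were lower, so that count is near those shares in a list this short. Of 20 with a probe, 10 were measured, the median was 0.06 and the summed signal was 1551 in the control and 1380 with MEF2C-ASR. Mcpt8, Fcer1a and Gata2 differed by -0.17, 0.02 and -0.26. Prg3 was at least 2.54-fold lower, since it was not well above background on the MEF2C-ASR array. The median of this list was below 0 in 4 alternatives: -0.03 with normexp correction, -0.11 with spike-in scaling, -0.17 with the filter at the 25th percentile of level and -0.22 with all probes kept.

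Genes beside the granule genes on the chromosome were followed to see whether a whole neighbourhood differed. For each member the 3 nearest measured genes on each side were taken by RefSeq order, which gave 54 genes outside the set. None was 2-fold higher and 1 was 2-fold lower, which is near the shares of all genes, 1.74% and 1.91%. Of the 54, 28 lay above 0, and the median was 0.01. Over all genes 39.5% had all their measured probes above 0, a stricter count than that of the 28. Next to Mpo, the related peroxidase genes Lpo and Epx, 2.02 kb and 59.6 kb away, differed by -0.22 and 0.16. Next to Ctsg, in the locus of mast cell proteases, Mcpt8, Mcpt4 and Cma1 differed by -0.17, 0.10 and 0.12. The highest of the 54 were Ralgds beside Fcnb (0.88), Rnf43 beside Mpo (0.87) and Ccrl2 beside Ltf (0.84), and the lowest after the gene past 2-fold was Fbxw15 beside Camp (-0.82). The gene that was lower, 1700007K13Rik, had signals of 148 and 43.6 and lies 377 kb from Fcnb. Except for it, the neighbours named were picked after their values were seen, for related function or as the extremes. Camp, Ngp and Ltf share chromosome 9, with 570 kb between Camp and Ngp and 596 kb between Ngp and Ltf, and their differences were 1.44, 0.51 and 0.86.

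**Figure D4:**
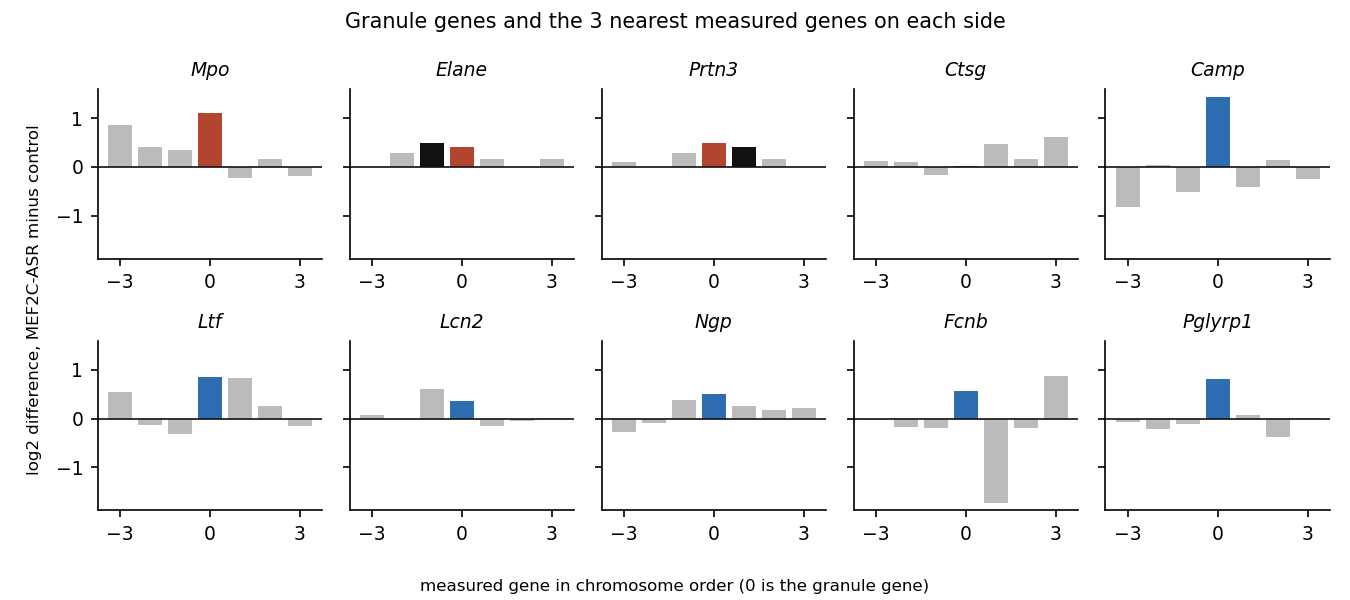
Difference on the log2 scale (MEF2C-ASR minus control) of each granule gene (position 0) and of the 3 nearest measured genes on each side, in chromosome order. Of the 54 neighbours that are not granule genes, none is 2-fold higher and 1, beside Fcnb, is 2-fold lower, at -1.73. Over all genes these shares are 1.74% and 1.91%.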

How the data were processed

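The deposited intensity values are the processed signals of 1-colour (Cy3) Agilent Whole Mouse Genome arrays, background-corrected by Feature Extraction 9.5.1.1, per the file headers. The authors' value table holds the same processed signals, and the largest relative difference from the scanner values was 0. What was computed here: the log2 of the processed signal minus each array's 75th percentile over 43379 non-control spots. A probe counted as measured if it was well above background, not saturated and not a feature outlier on both arrays. Spots of a probe were averaged, then probes of a gene.

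Probes were named through RefSeq (GRCm38.p6) by accession (23082 probes), by symbol (6582) or by an older symbol (3073), and 8437 kept the file's name. The files give probe positions in a build that no source used here names, so gene positions are RefSeq's and no probe was placed in an exon. All 11 member probes were single spots.

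The members and lists were chosen with earlier results of these data known. Named genes are the members, the Mef2 genes, Hprt, in each list up to 6 genes past 2-fold by size (or the 3 brightest where none was) and neighbours past 2-fold, with exceptions stated. With 1 array a group there are no p-values. There were 11 alternatives (scaling, background correction, filters, probe summary, loess, value table), and normexp was fitted without 1482 spots with a background-outlier flag, a choice made after seeing the data. Python 3.11.15, pandas 2.3.3, statsmodels 0.14.6, R 4.3.3 and limma 3.58.1 were used. The calculation was tested on simulated data.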

Additional observations from a re-analysis of the deposited data

How the results depend on the processing

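Under the 11 alternatives 98 of the members' 109 values moved by less than the spotting scatter of 0.13. The other 11 were all 10 members with scaling to the spike-in controls, which lowered every difference by 0.17, and Fcnb with normexp correction (0.31). Many of the 98 were fixed in advance and show no stability. For members read by 1 probe, the filters, the probe summaries and the value table could only keep the value or drop it. With the spike-in scaling the count of members at least 2-fold higher was 1 (Mpo at 0.94), the azurophil median 0.29 and the later median 0.53, and the cause was not tested. Over all genes that scaling gave 203 higher and 450 lower and a median of -0.20. Counted at 1.5-fold, 4 members were higher. Ctsg was the only member whose direction turned, at -0.15 with spike-in scaling, -0.02 with the percentile of probes above background and -0.00 with loess. The later median stayed above the azurophil median by 0.18 to 0.35. This gap moved only with normexp correction (0.18), loess (0.26) and the filter at the 25th percentile of level (0.35), which drops Fcnb. The scalings could not alter it, because they shift all genes of an array alike. Fcnb had no value with the filter at the 25th percentile of level. For the other lists, 96 of 110 medians moved by less than that scatter, and 101 of 110 counts past 2-fold stayed within 1.5 times the main count. Many of these were fixed in advance too and show no stability. The value table could move none of them. Median scaling and scaling to the percentile of probes above background shifted every list median alike, by less than that scatter. No paired analysis was possible because each group had 1 array. Signal close to background limits Fcnb.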

Other observations

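Neutrophil maturation markers differed in the same direction as the later granule genes. Of 27 measured, 9 were at least 2-fold higher, none was lower, 25 lay above 0 and the median was 0.59. Over all genes 1.74% were higher, and 39.5% had all their measured probes above 0. Fcgr4 (-0.81) and Fut4 (-0.25) lay below 0 and are named for that, not by the rule for naming genes. No probe was matched to Ly6g. Mmp8 (2.42), Ifitm6 (2.24), Il1r2, the interleukin-1 decoy receptor (2.04), Stfa3 (1.85), Stfa2 (1.51) and Retnlg (1.49) had the largest differences. Stfa2 and Stfa3 are near-identical stefin copies whose probes can share signal, so their values are uncertain.

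Of 9 measured stem and progenitor markers none was higher and 1 was lower, against 1.74% and 1.91% of all genes. The lower gene was Ly6a, the Sca-1 gene, at -1.53, and the list's median was 0.10. Such small counts in a list this short say little about the list, which holds for the other lists of this paragraph too. Procr was at least 2.84-fold higher, since it was not well above background on the control array. Of 9 measured erythroid and megakaryocyte markers 1 was higher, Pf4, a platelet chemokine, at 1.24, and the median was -0.05. Of 16 lymphoid markers 5 were measured and 1 was higher, Cd79a, a part of the B cell receptor, at 1.15, and the median was 0.10. Cd79a was below 2-fold in 2 alternatives, at 0.98 with spike-in scaling and 0.60 with normexp correction, and had no value with the filter at the 25th percentile of level. With spike-in scaling the medians of these lists were -0.07 (stem and progenitor), -0.21 (erythroid and megakaryocyte) and -0.07 (lymphoid), and the lymphoid median was -0.18 with all probes kept.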
